A study of Mus musculus with 12 samples.

Results

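Mir-218 is a microRNA whose hairpins lie in introns of the axon guidance genes Slit2 and Slit3. It was chosen by name, as every row whose first name element is Mir-218 or starts with Mir-218 and a hyphen, and this gave 2 of the 513 rows of the hippocampal miRNA table. One row is the 5p arm, the strand that is loaded into the silencing complex (the guide), and it is shared by the copies Mir-218-P1 and Mir-218-P2. The other is the 3p arm of Mir-218-P2, the opposite (passenger) strand, marked with an asterisk in the table. No row matched the 3p arm of Mir-218-P1, which is not analysed here. The names follow MirGeneDB, and P1 and P2 were read here as Mir218-1 and Mir218-2 by their number, since the table gives no sequence.

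The 12 small RNA libraries came from hippocampi of 12 male wild-type mice of C57BL/6J, a standard inbred strain. In the exercised lineage, 6 mice were grandsons, through the male line, of males that had exercised. In the sedentary lineage, the other 6 were grandsons of sedentary males. The exercise was that of the grandfathers, and the labels used here give no age and no exercise for the grandsons themselves.

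A miRNA hairpin is cut into a duplex, and the strand that is kept pairs through its seed, bases 2 to 8, with sites in target mRNAs. Slit2 and Slit3 encode secreted ligands that steer axons through Robo receptors, and Robo1 mRNA is a known target of miR-218. MiR-218 is known as a neuronal miRNA, most abundant in spinal motor neurons and also made in forebrain neurons, those of the hippocampus included.

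The mature sequences are shown because the 5p arm is the same in both genes and the 3p arms differ, which decides what a row can tell. Seeds (bases 2 to 8) are in capitals, and sequences are those of RefSeq on GRCm38.p6.
miR-218-5p, Mir218-1 and Mir218-2: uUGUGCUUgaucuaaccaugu
miR-218-1-3p, Mir218-1: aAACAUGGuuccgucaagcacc
miR-218-2-3p, Mir218-2: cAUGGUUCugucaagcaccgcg

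The 5p arms were identical over all 21 bases, so the shared row cannot say how much came from Slit2 and how much from Slit3. The annotated 3p arms start 3 bases apart. Over the 19 bases they share, 18 were identical, and the difference is U9C, with the base of miR-218-2-3p first and positions counted from its 5′ end. Their seeds therefore differ, AACAUGG for miR-218-1-3p and AUGGUUC for miR-218-2-3p. Of 1679 mature names in the RefSeq table, 2 carry the 5p seed UGUGCUU, miR-218-5p itself and miR-7002-3p, and no row name of the hippocampal table holds the number of miR-7002.

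The hairpins are shown with the 5p arm in capitals, because outside the arms the copies differ.
Mir218-1, chr5:48223942-48224051, plus strand: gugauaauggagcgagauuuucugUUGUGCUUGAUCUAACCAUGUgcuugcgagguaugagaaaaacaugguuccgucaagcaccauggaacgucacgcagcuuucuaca
Mir218-2, chr11:35616816-35616925, plus strand: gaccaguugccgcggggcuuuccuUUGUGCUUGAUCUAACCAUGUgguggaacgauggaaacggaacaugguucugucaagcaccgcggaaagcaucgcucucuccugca

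Both hairpins are 110 bases long, and 71 of the 110 aligned bases (64.5%) were identical. RNAfold gave a minimum free energy of -36.6 kcal/mol for Mir218-1 and -42.3 kcal/mol for Mir218-2, with 18 and 17 of the 21 bases of the 5p arm paired. In the GENCODE annotation of the same build, Mir218-1 lies within an intron of Slit2 (chromosome 5, 47983138 to 48307733, plus strand) and Mir218-2 within an intron of Slit3 (chromosome 11, 35121224 to 35708507, plus strand). Each is on the strand of its host. In transcript models of 36 exons, both sit in intron 14, which has 4572 bases in Slit2 and 9571 bases in Slit3. Other Slit2 models number that intron differently or have a shorter intron there, of 3662 or 1114 bases.

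Mir-218 5p was among the most abundant miRNAs of the hippocampus in both lineages. Values are normalized counts, that is, the reads of a row divided by 1 size factor per library. By mean over the 12 libraries the row ranked 3 of 513, and in single libraries its rank was 3 to 4 in exercised-lineage mice, against 3 to 5 in sedentary-lineage mice. Its share of all normalized counts was 4.96% ± 0.482 (SD, n = 6) in exercised-lineage mice, against 4.69% ± 0.603 (SD, n = 6) in sedentary-lineage mice. These shares rest on 342796 to 486929 reads per exercised-lineage library, against 329896 to 479141 per sedentary-lineage library.

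In the order of levels, Mir-9 5p, a neural progenitor and neuronal miRNA, stood 5.18 times above Mir-218 5p and was higher in 12 of 12 libraries. Mir-128 3p, a neuronal miRNA from introns of R3hdm1 and Arpp21, stood 1.33 times above it and was higher in 10 of 12. The next lower rows overlapped with it. Mir-143_3p, a mural cell miRNA, was above Mir-218 5p in 5 of 12 libraries, and Mir-10-P2b_5p in 3 of 12. Small RNA ligation favours some sequences, so an order between different miRNAs is an order of reads, which need not be that of molecules in the tissue.

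**Figure D1:**
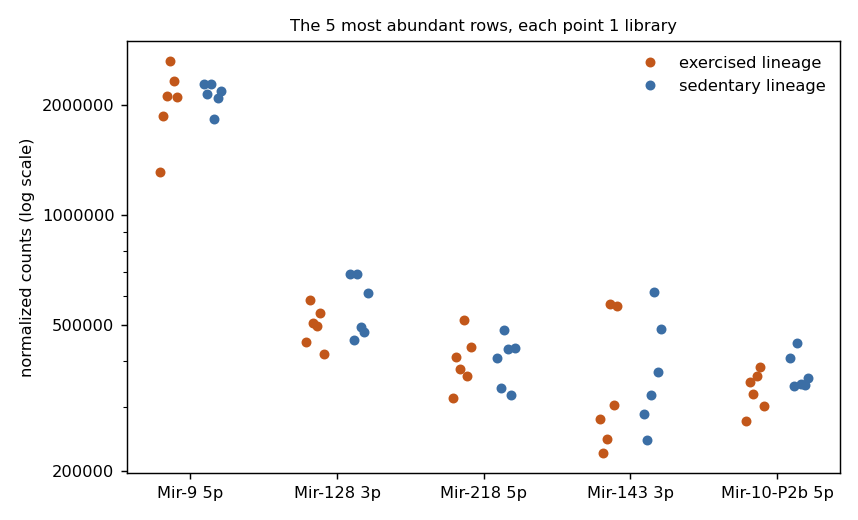
Normalized counts (log scale) of the 5 most abundant rows in each of the 12 libraries, exercised lineage left of sedentary lineage. Mir-9 5p lies above all other rows, while the points of Mir-218 5p overlap with those of Mir-143 3p and Mir-10-P2b 5p.

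The level of Mir-218 5p varied moderately between mice. Its coefficient of variation over the 12 libraries was 15.5%, close to the median of 15.2% among the 30 most abundant rows, of which 17 had a lower one. Counting error alone would give 0.159%, far below the observed spread. In the exercised lineage the lowest value was 317174 normalized counts, the median 394907 and the highest 518066. In the sedentary lineage the lowest was 322297, the median 420703 and the highest 486726. Mouse 1 was lowest and mouse 4 highest in the exercised lineage, and mouse 5 lowest and mouse 3 highest in the sedentary lineage, and the ranges overlap almost wholly.

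No difference in Mir-218 5p between the lineages was found. The log2 difference, exercised minus sedentary lineage, was 0.00033 (SE 0.13, limma on log2 of the value plus 1, Benjamini-Hochberg adjusted p = 0.998), with a 95% confidence interval of -0.28 to 0.28, or 0.825-fold to 1.21-fold. At the deposited scaling its difference was the closest to 0 among the 474 rows tested, those with a mean of at least 10. It was 0.028 with upper-quartile scaling, and 0.087 when scaled by totals, where the median of all rows was 0.085. A p above the threshold does not show equal levels, and a difference inside that interval cannot be told from none with these 12 mice. Of all 474 rows, 0 were called higher or lower at an adjusted p below 0.05 (0%), 34 (7.17%) had an unadjusted p below 0.05, 17 of them higher (3.59%) and 17 lower (3.59%), and the values of the lineages failed to overlap for 0 rows.

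The sign of the difference depended on single libraries. It turned in 5 of 12 cases when 1 library was left out, namely exercised-lineage mice 2, 4 and 6 and sedentary-lineage mice 2 and 5, and the values then ran from -0.074 (without exercised-lineage mouse 4) to 0.067 (without exercised-lineage mouse 1). Each library also has a code, and the 4 code stems take in 3 libraries each. R31 and R41 are stems of the exercised lineage, S11 and S41 those of the sedentary lineage, and what a stem stands for is not in the labels. Mir-218 5p averaged 368996 ± 47370 in R31, 439964 ± 76627 in R41, 411184 ± 74328 in S11 and 396438 ± 64213 in S41 (SD, n = 3 each). The difference was 0.12 without R31 and -0.12 without R41. Each stem lies within 1 lineage, so no comparison of the lineages within a stem could be made. With the stem as a random block (estimated correlation -0.0041, 1 value for all rows) the difference was as reported. Since stems are of equal size and each lies within 1 lineage, that block could not change the difference. It is therefore no check of a stem effect on Mir-218.

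As a share of all normalized counts, which does not depend on the size factor, Mir-218 5p had a lowest, median and highest value of 4.23%, 5.08% and 5.53% in the exercised lineage, against 3.89%, 4.72% and 5.33% in the sedentary lineage. The means differed by 0.277 percentage points (exact permutation test, two-sided, p = 0.392), with values from 0.118 (without sedentary-lineage mouse 5) to 0.423 (without exercised-lineage mouse 5) when 1 library was left out. A share is the level scaled by totals, and on that scale the log2 difference of Mir-218 5p was 0.087, where the median of all rows was 0.085. The share spread less than the level, with a coefficient of variation of 11.2% over the 12 libraries. Exercised-lineage mouse 1, lowest by level, stood at 4.91%, inside the range of the others.

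**Figure D2:**
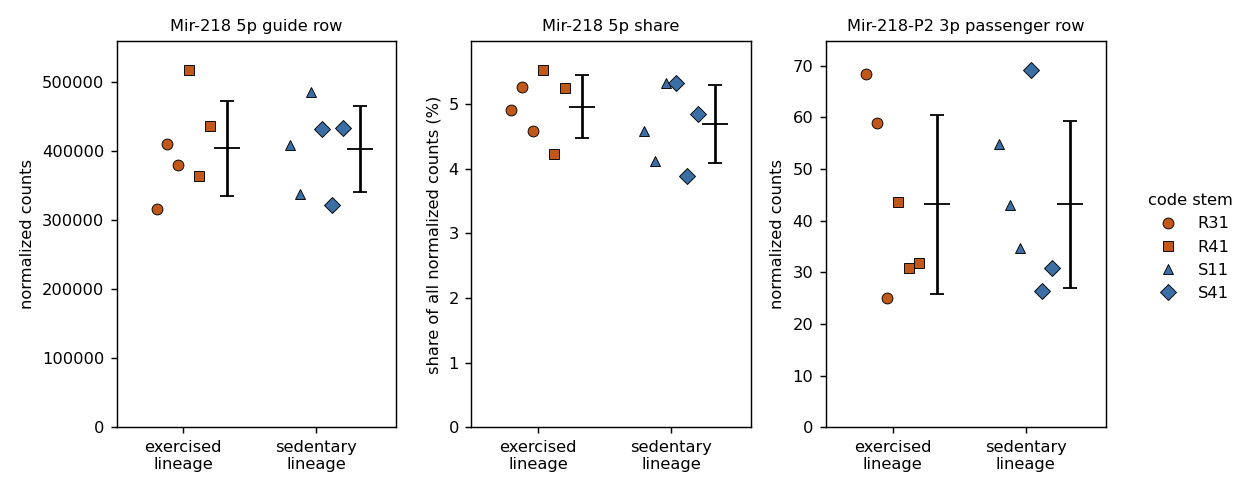
Mir-218 5p in normalized counts (left), its share of all normalized counts (middle) and the Mir-218-P2 3p row in normalized counts (right), 1 point per library with the mean and SD beside it and marker shapes for the code stem. In all panels the 6 libraries of the exercised lineage overlap with the 6 of the sedentary lineage.

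The passenger strand of Mir-218-P2, read here as the Slit3 copy, was rare and also without a found difference. Mir-218-P2_3p* had a lowest, median and highest value of 25.1, 37.8 and 68.5 normalized counts in the exercised lineage, against 26.4, 38.9 and 69.2 in the sedentary lineage. Exercised-lineage mice 1 and 2 and sedentary-lineage mouse 4 were the highest, and exercised-lineage mouse 3 and sedentary-lineage mouse 5 the lowest. Means were 43.1 ± 17.3 (SD, n = 6) in exercised-lineage mice, against 43.2 ± 16.2 (SD, n = 6) in sedentary-lineage mice. The log2 difference was -0.013 (SE 0.29, limma adjusted p = 0.996), with a 95% confidence interval of -0.64 to 0.62. That interval is wider than the median over all 474 rows, 0.63 against 0.34 to each side.

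Few reads stand behind the passenger row, 29 to 74 per exercised-lineage library, against 28 to 76 per sedentary-lineage library. Counting error alone would give a coefficient of variation of 16.1%, and 37.1% was observed. Of 89 rows within 2-fold of its mean, itself included, 62 had a lower coefficient of variation. Its sign turned in 6 of 12 cases with 1 library left out, with values from -0.16 (without exercised-lineage mouse 1) to 0.14 (without sedentary-lineage mouse 4); the other turns came without exercised-lineage mice 3, 5 and 6 and sedentary-lineage mice 1 and 2. Scaling by library totals gave 0.072.

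The 5p row of Mir-218 stood further above its passenger row than was the case for nearly all other miRNAs that have both rows. Over the 12 libraries the 5p row was 9366 times the Mir-218-P2 3p row by ratio of means. The log2 ratio averaged 13.24 ± 0.65 (SD, n = 6) in exercised-lineage mice, against 13.22 ± 0.50 (SD, n = 6) in sedentary-lineage mice. The difference was 0.013 (exact permutation test, two-sided, p = 0.974), and its sign turned in 7 of 12 cases with 1 library left out, with values from -0.11 without sedentary-lineage mouse 4 to 0.23 without exercised-lineage mouse 1. Among 171 miRNAs with both a guide and a passenger row, where the median log2 ratio was 4.75, Mir-218 ranked 3. Above it stood Mir-21_5p, whose passenger row is listed at 0 in 3 libraries, and Mir-101-P1-v1_3p. Among the 16 of these with a guide mean of at least 100000 normalized counts the rank was also 3, against a median log2 ratio of 11.48.

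The ratio has limits of its own. The guide row sums both copies, while the passenger row is named for Mir-218-P2 only, read here as the Slit3 copy. The 3p arms are alike at 18 of 19 shared bases and the mismatch setting was not given. Whether the row also holds reads of the other 3p arm was therefore not known, and the ratio within a single hairpin cannot be given. Another 103 guide rows have no passenger row here and were not ranked.

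**Figure D3:**
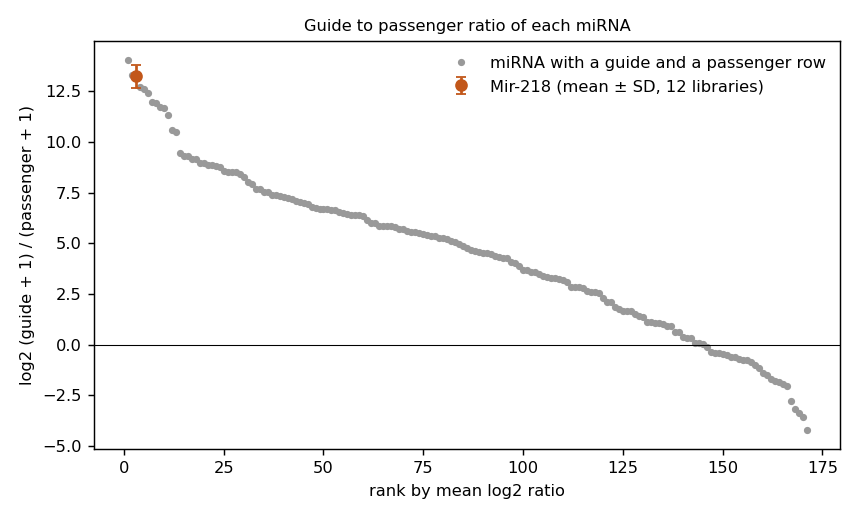
Mean log2 ratio of guide to passenger row, each plus 1, for 171 miRNAs ordered by that ratio, with Mir-218 marked by its mean and SD over the 12 libraries. Mir-218 stands at rank 3, at 13.2, where the median miRNA is at 4.75.

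No relation between the guide and the passenger row across mice was found. Their log2 values had a Pearson r of 0.02 (permutation p = 0.944) and a Spearman rho of 0.10 (permutation p = 0.765) over 12 libraries. Within the exercised lineage r was -0.19 and within the sedentary lineage 0.27, and over both it was 0.12 without the 2 libraries farthest from the median of the guide, exercised-lineage mouse 1 and sedentary-lineage mouse 5. Against the total reads of a library, r was -0.23 for the guide (permutation p = 0.469, rho -0.16, p = 0.624) and -0.48 for the passenger (permutation p = 0.118, rho -0.55, p = 0.0683). Without the 2 libraries farthest from the median depth, exercised-lineage mouse 3 and sedentary-lineage mouse 5, these were 0.02 and -0.17. Within the exercised lineage they were -0.11 and -0.52, and within the sedentary lineage -0.37 and -0.44. Over these 3 relations, the adjusted p for r was 0.944, 0.703 and 0.353, and that for rho 0.765, 0.765 and 0.205.

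The rows most like Mir-218 5p across mice were picked by their Pearson r on log2 values over the 12 libraries, and no p is given because they are the highest of 472. Mir-874_3p had an r of 0.78 (rho 0.81), Mir-154-P9_3p, from the imprinted Dlk1-Dio3 miRNA cluster, 0.78 (rho 0.79), and Mir-29-P2a_3p with its copy, of a family known for targeting collagen mRNAs, 0.77 (rho 0.82). Mir-28-P1_5p followed with 0.73, Mir-148-P3_5p* with 0.71 and Mir-3081_3p with 0.70. Over all 472 other rows r ran from -0.79 to 0.78 with a median of 0.02.

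For 4 of the 6 rows the likeness was lower without 2 of the libraries, and for all 6 it was lower on shares of the library total. Without exercised-lineage mouse 1 and sedentary-lineage mouse 5, the libraries farthest from the median of Mir-218 5p, r was 0.60 for Mir-874_3p, 0.69 for Mir-154-P9_3p and 0.68 for Mir-29-P2a_3p, while it was 0.75 for Mir-28-P1_5p, 0.53 for Mir-148-P3_5p* and 0.77 for Mir-3081_3p. Within the exercised lineage the first 3 had an r of 0.72, 0.90 and 0.80, and within the sedentary lineage 0.88, 0.80 and 0.83. The lineages were less alike for Mir-148-P3_5p* (0.98 in the exercised, 0.44 in the sedentary lineage) and Mir-3081_3p (0.55 and 0.84). Mir-28-P1_5p had 0.67 and 0.79. On shares, r was 0.64, 0.59 and 0.53 for the first 3 and 0.53 to 0.63 for the others.

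**Figure D4:**
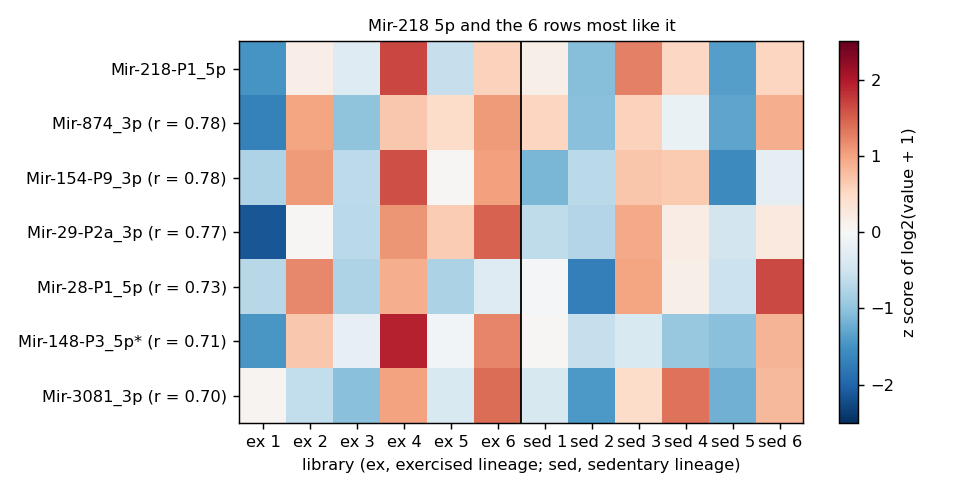
Z scores of log2(value + 1) over the 12 libraries for Mir-218 5p (top) and the 6 rows with the highest Pearson r to it, exercised lineage left of the line and sedentary lineage right of it. Exercised-lineage mouse 4 is high for Mir-218 5p, and exercised-lineage mouse 1 and sedentary-lineage mouse 5 are low.

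Other miRNA families known from introns of protein-coding genes had no called row, which held for all 474 rows tested. The list took every row of 18 such families, so it can hold copies that lie outside such introns. It gave 40 rows, of which 39 passed the filter. Of these 13 had a difference above 0 and 26 below, beside 236 above and 238 below of all 474 rows. Of the 39 rows, 0 were called, beside 0% of all rows, and 0 had an unadjusted p below 0.05, beside 7.17%. The median log2 difference was -0.037, against -0.0013 over all 474 rows, and its sign turned without exercised-lineage mouse 6 (0.0050) and without R41 (0.013). Scaled by totals it was 0.050, where all rows had a median of 0.085. Mir-128 3p, its most abundant row, had a log2 difference of -0.18 (SE 0.13, limma adjusted p = 0.596), with -0.089 when scaled by totals, -0.12 without sedentary-lineage mouse 1 or mouse 3, and -0.078 without S11. The next most abundant rows were Mir-26 5p, from introns of Ctdsp phosphatase genes, and Mir-126 3p, an endothelial miRNA from Egfl7. Mir-26 5p averaged 284621 ± 34672 normalized counts (SD, n = 6) in exercised-lineage mice, against 316112 ± 37366 (SD, n = 6) in sedentary-lineage mice (log2 difference -0.15, SE 0.10, limma adjusted p = 0.576). Its difference was -0.066 when scaled by totals, -0.095 without exercised-lineage mouse 1 and -0.097 without sedentary-lineage mouse 6. Mir-126 3p averaged 95058 ± 14205 in exercised-lineage mice, against 97490 ± 7738 in sedentary-lineage mice (log2 difference -0.046, SE 0.10, limma adjusted p = 0.908, but 0.041 when scaled by totals and 0.0079 without exercised-lineage mouse 1).

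Of other neuron-enriched miRNAs, 9 families gave 25 rows, all tested. The rows of Mir-128, Mir-7 and Mir-153 were also part of the intron list above, so the lists overlap. In the neuron-enriched list 14 rows had a difference above 0 and 11 below, beside 236 above and 238 below of all 474 rows. Of the 25 rows, 0 were called, beside 0% of all rows, and 0 had an unadjusted p below 0.05, beside 7.17%. The median log2 difference was 0.073, against -0.0013 over all 474 rows. Scaled by totals it was 0.16, where all rows had a median of 0.085. At the deposited scaling, the median of the list was 0.014 without sedentary-lineage mouse 6 and 0.013 without S41. It was 0.039, 0.048 and 0.043 without sedentary-lineage mice 2, 4 and 5. Mir-9 5p had a log2 difference of -0.080 (SE 0.14, limma adjusted p = 0.881; 0.0071 when scaled by totals, 0.044 without exercised-lineage mouse 1). Mir-7 5p, partly from an intron of Hnrnpk, averaged 70011 ± 29277 normalized counts (SD, n = 6) in exercised-lineage mice, against 97028 ± 29453 (SD, n = 6) in sedentary-lineage mice (log2 difference -0.56, SE 0.33, limma adjusted p = 0.532). The difference was -0.26 without exercised-lineage mouse 1, -0.13 without R31 and -0.98 without R41.

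Markers of neurons, taken as a sum, were abundant in all 12 libraries. All 5 neuronal marker families (Mir-124, Mir-9, Mir-128, Mir-138 and Mir-132) had a row, and their guide rows summed to 1871942 to 3196503 normalized counts in exercised-lineage mice, against 2403617 to 3044513 in sedentary-lineage mice. Most of that sum was Mir-9 5p and Mir-128 3p, with means of 2093845 and 535786 over the 12 libraries. Means were far lower for Mir-124 3p (39385), Mir-132-P1 3p (13349, the highest Mir-132 row) and Mir-138 5p (8492). Markers of hindbrain and spinal cord, where motor neurons lie, were low, with Mir-10-P1 guide rows at 168 to 1180 in exercised-lineage mice, against 326 to 641 in sedentary-lineage mice and no row matched for Mir-196. Choroid plexus markers ranged from 28676 to 159153 in exercised-lineage mice, against 27595 to 160273 in sedentary-lineage mice, and mural cell markers from 224920 to 575298 in exercised-lineage mice, against 245536 to 616425 in sedentary-lineage mice. The mural cell sum was nearly all Mir-143_3p, with a mean of 377051 over the 12 libraries, against 1428 for Mir-145_5p. In exercised-lineage mice, oligodendrocyte markers lay at 2716 to 3593, microglia and leukocyte markers at 1611 to 2205, red cell markers at 622 to 826, endothelial markers at 87297 to 124330 and muscle markers at 3096 to 5790. In sedentary-lineage mice they lay at 1476 to 3851, 1705 to 2145, 726 to 1219, 93871 to 114704 and 3252 to 7682, in the same order of cell types. For oligodendrocytes the sum took only the guide rows, Mir-219 5p and Mir-338-P1 3p. Their passenger rows were higher, so this sum leaves out much of the reads of these families. Means were 12082 against 1398 for Mir-219 and 2002 against 1584 for Mir-338-P1, passenger first. The ranges overlap for all 9 cell types. Of 18 relations of 9 marker sums with the 2 Mir-218 rows, none passed the threshold after adjustment (lowest permutation adjusted p 0.201), and 3 had an unadjusted p below 0.05 by Pearson's r. Choroid plexus markers against Mir-218 5p had an r of -0.64 (permutation p = 0.0297, adjusted p = 0.201, rho -0.60) over 12 libraries, with -0.69 within the exercised lineage and -0.59 within the sedentary one. It was -0.75 without exercised-lineage mouse 3 and sedentary-lineage mouse 1, the libraries farthest from the median of these markers. On shares of the library total it was -0.56. Neuronal markers against Mir-218 5p had an r of 0.60 (permutation p = 0.0335, adjusted p = 0.201, rho 0.47), with 0.76 within the exercised lineage and 0.40 within the sedentary one. It was 0.19 without exercised-lineage mice 1 and 4, and -0.14 on shares of the library total. Muscle markers against the passenger row had an r of -0.63 (permutation p = 0.0233, adjusted p = 0.201, rho -0.44), with -0.77 within the exercised lineage and -0.57 within the sedentary one. It was -0.43 without exercised-lineage mouse 1 and sedentary-lineage mouse 5, and -0.40 on shares of the library total. The part of tissue makeup in the spread of Mir-218 was not tested. In bulk tissue, fewer cells of a type and less of the miRNA per cell cannot be told apart.

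**Figure D5:**
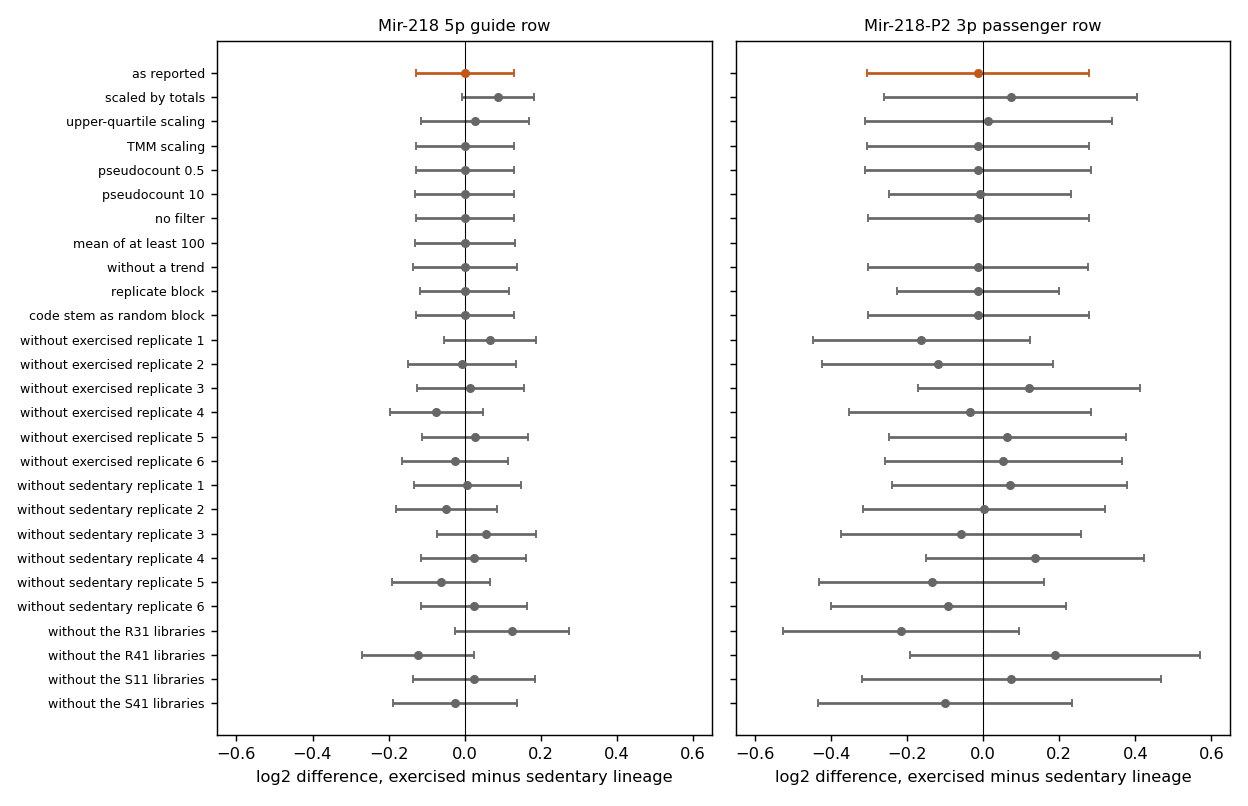
Log2 difference, exercised minus sedentary lineage, with its SE, for Mir-218 5p (left) and the Mir-218-P2 3p row (right), as reported (top, orange) and under each other setting or with libraries left out. All points lie between -0.22 and 0.19, on both sides of 0, and the passenger row has no point at a mean of at least 100.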

How the data were processed

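The authors deposited 1 table of reads per mature miRNA arm divided by a size factor, a non-negative signal whose column names say raw although the values are not whole. Bowtie 1.3.0, build mm10 and DESeq2 were used per the submitters' processing notes; for trimming, mismatches and the row filter the settings were not given in the sources used here. Extraction used a Qiagen miRNA kit and library preparation a NEB small RNA set, per the labels' protocols, which name no molecular identifiers. Every value was a whole multiple, within 0.01, of 1 step per library; taken as 1 read, depth was 6862623 to 10219856 reads, averaging 8296923 ± 1299072 (SD, n = 6) for exercised-lineage libraries, against 8587985 ± 1216807 (SD, n = 6) for sedentary-lineage libraries (exact permutation test, p = 0.697). The smallest value stood for 2 to 6 reads, so no count model was run. The step served only for depth, reads per row, counting error and the comparison of library pairs.

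Libraries were grouped by title, 6 a lineage, numbered 1 to 6 as separate mice. Rows with a mean of at least 10 (474 of 513) were tested with limma 3.58.1 in R 4.3.3 (empirical Bayes with a trend) on log2(value + 1), which understates differences of low values, and adjusted over all 474. Shares and ratios per library were compared by exact permutation over 924 assignments; correlations used 100000 permutations, and the 18 relations with marker sums were added after the data had been seen. The limma script was first tested on simulated data. RNAfold 2.7.2 folded the RefSeq hairpins. No 2 libraries agreed within sampling noise (lowest chi-square per degree of freedom 73.1 over 66 pairs).

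Rows named in the text are those of Mir-218, the 6 most correlated, the 2 above and 2 below in mean level, and the 3 most abundant of each list; the marker families were named as well, and Mir-21_5p and Mir-101-P1-v1_3p, the rows above Mir-218 in arm ratio, were chosen after their values were seen. The members, lists and tests were chosen with earlier results of these data known. Alternatives covered scaling, pseudocounts, filters, the trend, blocks and left-out libraries.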

Additional observations from a re-analysis of the deposited data

How the results depend on the processing

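No row was called under any of 26 alternatives, and the rows at an unadjusted p below 0.05 numbered 16 to 48 (34 as reported, 17 to 48 with 1 library left out). The difference of Mir-218 5p kept its side of the threshold under all 26 (lowest limma adjusted p 0.731) and changed sign without the R41 (-0.12) and S41 libraries (-0.025); with 1 library left out it ran from -0.074 to 0.067. That of the 3p row kept its side under 25 (lowest adjusted p 0.787) and changed sign when scaled by totals (0.072) or upper quartiles (0.014) and without the R41 (0.19) and S11 libraries (0.074); left-out values ran from -0.16 to 0.14. The log2 ratio of the arms was -0.31 without R41 and -0.048 without S11 (left-out range -0.11 to 0.23). The share differed by 0.118 to 0.423 percentage points, above 0 in all 17 of its alternatives, of which the replicate block could not change it. Shares are levels scaled by totals, where the median of all rows was also above 0. Mir-9 5p changed sign when scaled by totals (0.0071) and without R31 (0.14; left-out range -0.16 to 0.044), and Mir-126 3p when scaled by totals (0.041) and without R31 (0.13) or S41 (0.037; left-out range -0.10 to 0.0079). The cause was not tested. Scaling by totals moved the median of all rows to 0.09.

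Mouse numbers did not pair the libraries: the deviations of same-numbered mice correlated at -0.17 to 0.15, above 0.1 in 1 of 6 pairs. With a replicate block, 16 rows had an unadjusted p below 0.05, 0 were called, and Mir-218 5p had 0.00033 (SE 0.12, adjusted p 0.998) and the 3p row -0.013 (adjusted p 0.995). Each lineage has a single mouse of each number, so that block could change the SE and p but not the differences. With the code stem as a random block (estimated correlation -0.0041, 1 value for all rows) both differences were as reported. They could not have changed, since stems are of equal size and each lies within 1 lineage. A minimum mean of 100 leaves the 3p row untested. The planned edgeR and DESeq2 alternatives were not run. Depth limits the 3p row, with at most 76 reads a library.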
